A study of Mus musculus with 10 samples.

Results

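The 9 genes described here encode the mitochondrial enzymes and carriers that take long-chain fatty acids into the matrix and degrade them: Cpt1a, Slc25a20 and Cpt2 of the carnitine shuttle, the acyl-CoA dehydrogenases Acadvl, Acadl and Acadm, both subunits of the mitochondrial trifunctional protein, Hadha and Hadhb, and the thiolase Acaa2. They were chosen by gene symbol, through the Ensembl identifiers of the count table, and all 9 were among the 14172 genes tested out of 43432 in the table. They were measured by poly(A) RNA sequencing in RAW264.7 cells, a mouse macrophage line, in 10 libraries of 5 groups with 2 replicates each. Cells received solvent (0.5% DMSO) or compound **1**, a keto fatty acid from a marine cyanobacterial mat whose carbonyl is conjugated to its double bond, at a dose of 32, 10 or 3.2 µM for 1 h, then lipopolysaccharide (LPS, a bacterial wall component that activates macrophages) at 1 µg/mL, and RNA was taken 12 h later. The 5 groups were DMSO without LPS, DMSO + LPS, and **1** at 3.2, 10 and 32 µM, each with LPS. The labels do not give the DMSO content of the wells with **1**. No group combined **1** with cells left without LPS, so every comparison of **1** was made in LPS-treated cells of a single line. The sources do not say whether the replicates were separate cultures, so that p-values measure the spread between these libraries.

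Long-chain fatty acids cross the inner mitochondrial membrane only as carnitine esters, and the outer membrane enzyme Cpt1a, which makes these esters, is the step at which malonyl-CoA, the precursor of fatty acid synthesis, restrains oxidation. Inside the matrix each round of β-oxidation shortens the acyl-CoA through dehydrogenation, hydration, a further dehydrogenation and thiolysis. Many of these genes are known targets of the peroxisome proliferator-activated receptors (PPARs), nuclear receptors that bind fatty acids, and LPS-activated macrophages are known for a turn from fatty acid oxidation to glycolysis.

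Library totals ran from 45966803 to 58976377 counts, and the members held 714 to 9446 counts per library. The 10 macrophage markers examined were all detected, at summed levels of 8122 to 11990 CPM (counts scaled to a fixed library size after TMM normalisation, which evens out library composition), and their sum was lower with **1** at 32 µM (8512 and 8122 CPM) than in DMSO + LPS (10440 and 10560 CPM). The markers went both ways there, with 6 of the 10 lower (5.72% of all genes) and 1 higher (4.06%). The lower ones included Lyz2 (from 4127 to 2707 CPM) and Cd14 (from 3311 to 2549 CPM), and the higher one was Csf1r (from 814 to 1071 CPM). LPS itself had moved these markers: in DMSO, Cd14 was at 1139, Lyz2 at 6453 and Csf1r at 2267 CPM. The part of the markers in the members' values was not tested. The 5 lymphocyte markers summed to at most 0.354 CPM and the 5 fibroblast markers to 0.210 to 4.88 CPM, the top value in replicate 1 at 10 µM. The 4 epithelial markers (Epcam, Krt8, Krt18 and Cdh1) reached 38.2 CPM in that library and 5.78 CPM in replicate 1 at 3.2 µM, against at most 0.0850 CPM in the other 8. In replicate 2 at 32 µM, 3.98% of counts lay on ribosomal RNA features, against 0.176 to 0.383% elsewhere. These 3 libraries stood apart. The members' calls that rest on them are also given without them, as are those at 32 µM against DMSO + LPS of other genes named with log2 changes. Other calls, such as list counts and cell type markers, are not. Each dose of **1** then has a single library, assumed to vary like the other groups. The DMSO libraries, kept in those fits, differed too: the median centred level of short-transcript genes was -0.413 in replicate 2, the lowest of the series, against 0.018 in replicate 1. In bulk RNA, fewer cells of a type and less RNA per cell cannot be told apart.

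The 3 stretches of genome below were chosen for the members nearest to them: the region before Cpt1a, which fell with LPS and rose with **1**; the region before Slc25a20, which rose at 32 µM; and the short gap between Hadha and Hadhb, the subunits of a single complex, which start head to head. They are taken from the RefSeq promoter windows of build GRCm38.p6, in which 8 of the 9 symbols were matched (Acaa2 was not), and are trimmed so as to hold no exon of these genes, although the Cpt1a stretch lies inside the annotated gene, which begins upstream in other transcripts. Capitals mark GGGCGG (the GC box), AGGTCA (the single receptor site bound by many nuclear receptors) and CCGGAAG (the core bound by ETS factors), each on either strand, so that CCGCCC is a GC box and TGACCT a receptor site read on the opposite strand.
Cpt1a, chr19:3323051-3323284, plus strand: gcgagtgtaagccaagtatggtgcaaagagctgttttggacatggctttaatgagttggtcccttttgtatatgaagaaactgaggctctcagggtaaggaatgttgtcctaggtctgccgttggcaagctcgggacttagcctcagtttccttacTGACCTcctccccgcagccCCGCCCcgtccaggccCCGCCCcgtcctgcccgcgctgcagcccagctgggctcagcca
Slc25a20, chr9:108661886-108662087, plus strand: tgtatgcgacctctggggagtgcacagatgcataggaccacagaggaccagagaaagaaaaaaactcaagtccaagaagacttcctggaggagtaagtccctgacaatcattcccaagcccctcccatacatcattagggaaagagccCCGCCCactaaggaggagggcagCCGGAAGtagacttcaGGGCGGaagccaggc
Hadha to Hadhb gap, chr5:30155163-30155247, plus strand, with Hadhb to the right: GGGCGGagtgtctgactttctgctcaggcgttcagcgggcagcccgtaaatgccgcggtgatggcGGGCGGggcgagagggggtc

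The Cpt1a stretch held 1 receptor site, 94 bases before the RefSeq start, and 2 GC boxes. The Slc25a20 stretch held 2 GC boxes and 1 ETS core, and the 85 bases between Hadha and Hadhb held 2 GC boxes. Over the 250 bases before the start, a receptor site was also found for Acadm and Acadvl, an ETS core also for Cpt2, and a GC box for 6 of the 8 matched members. Of all 32851 windows, 14% held the receptor site, 32.7% the GC box and 6.91% the ETS core. The full direct repeat of the receptor site with 1 base between, the arrangement PPARs are known to bind, was in 0.0335% of all windows and, with 1 free base in each repeat (AGGNCANAGGNCA), in 0.338%; neither was in a member's window. These motifs were chosen with the data in view, and a match or its absence describes the letters of these windows only.

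Cpt1a (19:3322334-3385733 in GRCm38, plus strand) encodes carnitine palmitoyltransferase 1A, the liver-type form of the enzyme. Its normalised level was 121 and 128 CPM in the DMSO libraries and 58.1 and 56.9 CPM in DMSO + LPS. With **1** the lowest dose gave 67.4 and 68.2 CPM, the middle dose of 10 µM gave 96.7 and 99.7 CPM, and the top dose of 32 µM gave 145 and 152 CPM. The replicates lay close together, and no group overlapped another: the order ran from DMSO + LPS through 3.2 and 10 µM to DMSO and then 32 µM. LPS lowered Cpt1a 2.17-fold (log2 fold change -1.12 ± 0.05, edgeR quasi-likelihood test, adjusted p = 4.68e-07). Unless marked SD, values after ± are SEs from the fit of all 10 libraries, with n = 2 per group. Against DMSO + LPS, Cpt1a rose 2.59-fold at 32 µM (log2 1.37 ± 0.05, 95% interval 1.26 to 1.48, adjusted p = 3.09e-06) and 1.71-fold at 10 µM (log2 0.77 ± 0.05, adjusted p = 3.12e-04). At 3.2 µM the fold was 1.18, with a raw p of 0.00105 that became 0.514 after adjustment over all genes; it passed in 2 of 22 other settings.

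**Figure D1:**
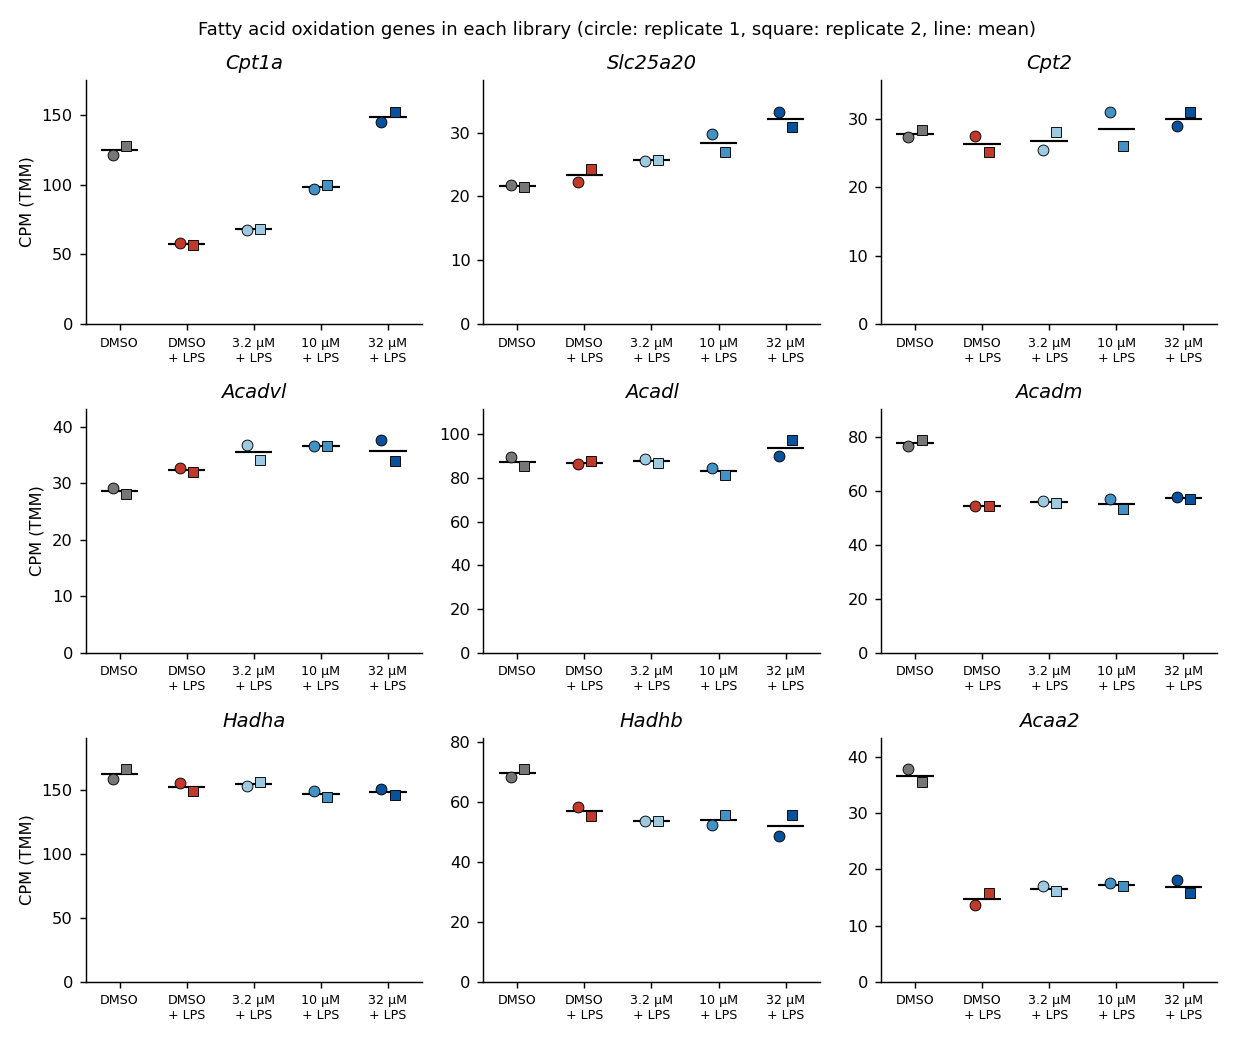
Normalised level (CPM after TMM scaling, vertical axis from 0 in each panel) of the 9 genes in each of the 10 libraries. Circles are replicate 1, squares replicate 2 and lines group means; Cpt1a falls from a mean of 125 CPM in DMSO to 57.5 CPM in DMSO + LPS and stands at 149 CPM with **1** at 32 µM, while Acaa2 stays between 13.7 and 18.1 CPM in all LPS-treated libraries.

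The steps between doses were tested on the same gene. Cpt1a was 1.51-fold higher at 32 than at 10 µM (log2 0.60 ± 0.05, adjusted p = 4.50e-04) and 1.45-fold higher at 10 than at 3.2 µM (log2 0.53 ± 0.05, adjusted p = 0.00337). Expressed against the loss after LPS (67.2 CPM between the group means), its level regained 15.4% at 3.2 µM, 60.6% at 10 µM and 136% at 32 µM. At 32 µM it was thus above the cells that had seen neither LPS nor **1**, by 1.19-fold (log2 0.25 ± 0.05, adjusted p = 0.00223), a difference that shrank to a log2 of 0.05 (adjusted p = 0.399) when libraries were scaled by their totals alone. The comparisons with **1** share the DMSO + LPS libraries, and the steps share the dose groups, so they are not independent of each other.

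Without the 3 libraries that stood apart, Cpt1a was still higher at 32 µM (log2 1.33, adjusted p = 3.45e-04) and at 10 µM (log2 0.79, adjusted p = 0.0207) than in DMSO + LPS. The step from 10 to 32 µM kept its size without them (log2 0.54) but not its call (adjusted p = 0.0522), and so did the step from 3.2 to 10 µM (log2 0.55, adjusted p = 0.235). Leaving out either library at 3.2 µM also ended the call for the lower step but not its size, with a log2 of 0.52 (adjusted p = 0.113) without replicate 1 and 0.54 (adjusted p = 0.0889) without replicate 2. The calls over all genes in that comparison fell from 128 to 7 in either case.

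Ratios to another member within a library do not depend on scaling. The count ratio of Cpt1a to Cpt2, the enzyme that returns the acyl group to CoA inside the matrix, was 4.45 and 4.52 in DMSO and 2.11 and 2.26 in DMSO + LPS. With **1** the ratio was 2.65 and 2.43 at the lowest dose, 3.11 and 3.83 at the middle dose and 5.02 and 4.91 at the top dose. On this ratio the 32 µM libraries were the highest of the series and the DMSO + LPS libraries the lowest. Against Slc25a20, which itself rose at 32 µM, the ratio was again lowest in DMSO + LPS (2.61 and 2.34), but at 32 µM (4.36 and 4.92) it was below DMSO (5.56 and 5.94). The smallest p that an exact permutation test allows for 2 against 2 is 0.333, so none was run.

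Slc25a20 (9:108662088-108684641, plus strand) encodes the carnitine-acylcarnitine translocase, the carrier of the inner membrane. It stood at 21.8 and 21.6 CPM in DMSO and 22.3 and 24.3 CPM in DMSO + LPS. Levels with **1** were 25.5 and 25.8 CPM at the lowest dose, then 29.8 and 27.0 CPM, and 33.3 and 31.0 CPM at the top dose. All libraries with **1** were above both DMSO + LPS libraries. The rise at 32 µM was 1.38-fold (log2 0.47 ± 0.07, 95% interval 0.30 to 0.63, adjusted p = 0.00473), and the value at 10 µM, 1.22-fold, did not pass (log2 0.29 ± 0.07, adjusted p = 0.103), although it did in 2 of 22 other settings.

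After LPS alone Slc25a20 did not pass the test (log2 0.10 ± 0.07, adjusted p = 0.278; -0.11 when scaled by totals alone), and at 32 µM it was 1.48-fold above DMSO (log2 0.57 ± 0.07, adjusted p = 2.82e-04). The rise at 32 µM held without the 3 libraries that stood apart (log2 0.52, adjusted p = 0.0268). It missed the threshold without replicate 1 of DMSO + LPS (log2 0.40, adjusted p = 0.0527).

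Cpt2 (4:107903981-107923610, minus strand) passed in no comparison, except after LPS when libraries were scaled by totals alone (log2 -0.28, adjusted p = 0.0296). Its libraries ran from 25.2 CPM in DMSO + LPS to 31.1 CPM at 10 and at 32 µM, with an SD of up to 3.55 CPM within a group (n = 2). The 95% interval of its log2 change at 32 µM against DMSO + LPS, -0.04 to 0.41, leaves room for up to a 1.33-fold rise.

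The 3 acyl-CoA dehydrogenases, which carry out the first step of each round on chains of falling length, differed after LPS. Acadm (3:153922357-153944632, minus strand), the medium-chain enzyme, was at 76.7 and 78.7 CPM in DMSO and at 54.4 CPM in both DMSO + LPS libraries. In the 6 libraries with **1** it lay between 53.2 and 57.6 CPM, well below both DMSO libraries. It fell 1.43-fold with LPS (log2 -0.52 ± 0.05, adjusted p = 4.75e-05), and 12.3% of that loss was regained at 32 µM (log2 0.07 ± 0.05, adjusted p = 0.449).

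Acadl (1:66830839-66863277, minus strand), the long-chain enzyme, was at 89.4 and 85.4 CPM in DMSO and 86.3 and 87.5 CPM in DMSO + LPS. Its log2 change was -0.01 ± 0.05, with a 95% interval from -0.13 to 0.11, and -0.22 (adjusted p = 0.00466) when scaled by totals alone. With **1** it ranged from 81.2 CPM in a 10 µM library to 97.0 CPM in a 32 µM library.

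Acadvl (11:70010183-70015411, minus strand), the very-long-chain enzyme, was at 29.1 and 28.2 CPM in DMSO, 32.7 and 32.0 CPM in DMSO + LPS, and 33.9 to 37.6 CPM in the 6 libraries with **1**. Every LPS-treated library was above both DMSO libraries. The change with LPS just missed the threshold (log2 0.18 ± 0.07, adjusted p = 0.0535) and passed in 7 of 22 other settings, with adjusted p from 0.0259 to 0.760 over all 22. At 32 µM Acadvl was higher than in DMSO (log2 0.32 ± 0.07, adjusted p = 0.00398). Acadvl shares 1151 exon bases with Dvl2 on the other strand. The paper names a directional library kit, but the strand setting of the counting is not given in the sources used here. Reads of the pair may therefore not be separated. Scaling by library totals alone turned its LPS change to -0.03 (adjusted p = 0.760) and took it below the threshold at 32 µM against DMSO (log2 0.12, adjusted p = 0.207).

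Hadha (5:30118304-30155162, minus strand) and Hadhb (5:30155248-30184593, plus strand) encode the α and β subunits of the trifunctional protein, which carries out the last 3 steps on long chains; the α subunit holds the hydratase and dehydrogenase, the β subunit the thiolase. Hadhb was at 68.3 and 70.9 CPM in DMSO and 58.4 and 55.3 CPM in DMSO + LPS. With **1** it lay between 48.7 CPM in replicate 1 at 32 µM and 55.5 CPM in replicate 2 at 32 and at 10 µM. Hadhb fell 1.22-fold with LPS (log2 -0.29 ± 0.07, adjusted p = 0.00867, but 0.0698 without replicate 2 of DMSO + LPS). None of its loss was regained with **1**, and at 32 µM it was 1.34-fold below DMSO (log2 -0.42 ± 0.07, adjusted p = 0.00142).

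Hadha was at 159 and 166 CPM in DMSO, 156 and 150 CPM in DMSO + LPS, and 145 to 157 CPM in the libraries with **1**. Its LPS change did not pass (log2 -0.09 ± 0.05, adjusted p = 0.144; -0.30 and 0.00138 when scaled by totals alone), and at 32 µM it sat at the threshold against DMSO (log2 -0.13 ± 0.05, adjusted p = 0.04997), a call that 17 of 22 other settings ended. The count ratio of Hadha to Hadhb, 2.32 and 2.35 in DMSO, was 2.60 to 3.10 in all 8 LPS-treated libraries, with 3.10 and 2.63 in the replicates at 32 µM alone. The 95% intervals of the log2 changes after LPS overlapped between Hadha (-0.20 to 0.02) and Hadhb (-0.45 to -0.13), and the difference between these genes, which flank the printed gap, was not itself tested. Hadha also shares 75 exon bases with Garem2 on the opposite strand.

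Acaa2 encodes a mitochondrial 3-ketoacyl-CoA thiolase, which releases acetyl-CoA in the last step of a round, a step that Hadhb carries out on long chains. It was at 37.8 and 35.5 CPM in DMSO and at 13.7 and 15.9 CPM in DMSO + LPS. In the 6 libraries with **1** it was 15.8 to 18.1 CPM, below both DMSO libraries. LPS lowered it 2.48-fold (log2 -1.31 ± 0.09, adjusted p = 9.48e-06), the widest change among the 9 genes in that comparison. Unlike Cpt1a, which lost a like share of its transcript, Acaa2 regained 9.92% of its loss at 32 µM (log2 0.20 ± 0.09, 95% interval -0.02 to 0.42, adjusted p = 0.267), and it remained 2.16-fold below DMSO there (log2 -1.11 ± 0.09, adjusted p = 2.65e-05). The 95% intervals of the 2 genes at 32 µM against DMSO + LPS do not meet, but the difference between the genes was not itself tested.

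**Figure D2:**
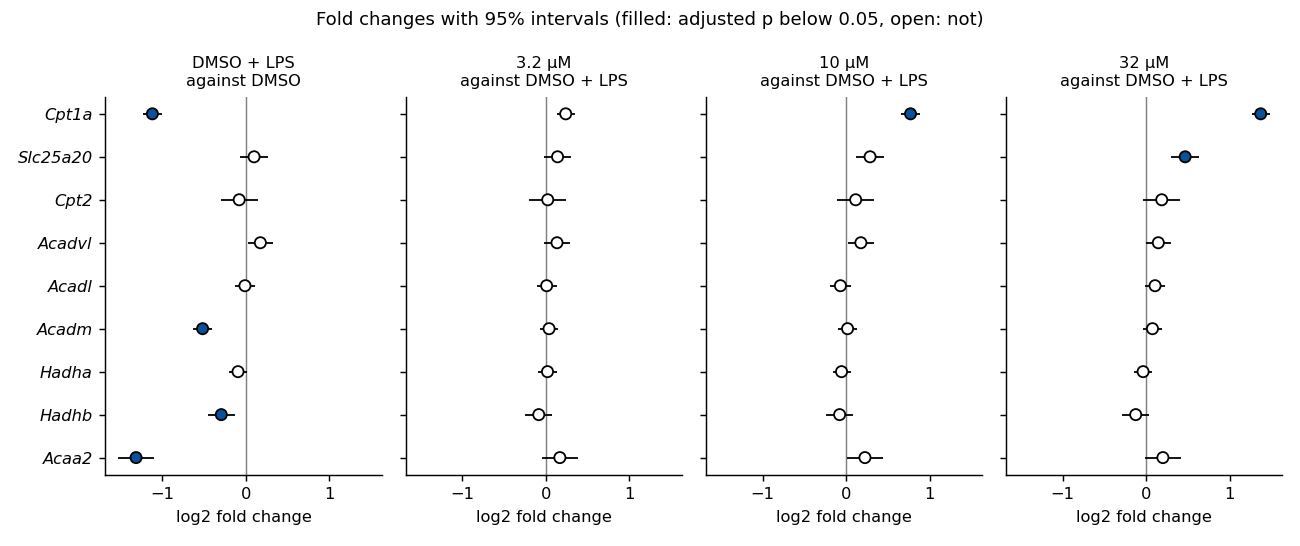
Log2 fold changes (horizontal axis) of the 9 genes in 4 comparisons, with 95% intervals as bars; filled points have an adjusted p below 0.05. LPS moved Acaa2 (-1.31) and Cpt1a (-1.12) furthest, and against DMSO + LPS only Cpt1a passed at 10 µM (0.77) and only Cpt1a (1.37) and Slc25a20 (0.47) at 32 µM.

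Counted over the 9 genes, 4 were lower and 0 higher after LPS, where 25.8% of all 14172 genes were lower and 25.2% higher; their median log2 change was -0.09, against 0.00 for all genes. At 32 µM against DMSO + LPS, 2 were higher and 0 lower (4.06% and 5.72% of all genes), with a median of 0.14 against 0.01. At 10 µM, 1 was higher and 0 lower (0.967% and 1.70%), and at 3.2 µM 0 passed in either direction (0% of all genes, each way). At 3.2 µM 1 member and 600 of all genes (4.23%) had an unadjusted p below 0.05 by edgeR. DESeq2 called 27 of the 14725 genes to which it gave an adjusted p (0.183%). DESeq2 did not call Cpt1a there (adjusted p = 0.0986), whereas it passed in edgeR with each library's short-transcript score (the median centred level of its short-transcript genes) as a covariate (adjusted p = 0.00334), and in edgeR on the 4 libraries compared alone (adjusted p = 0.0118). Between 32 and 10 µM, 1 was higher (0.804% of all genes; 1.95% lower), and between 10 and 3.2 µM, 1 (0.254%; 0.649% lower). At 32 µM against DMSO, 3 were higher and 4 lower, where 25.7% and 25.1% of all genes were. Without the 3 libraries that stood apart, Acaa2 (log2 -1.02, adjusted p = 7.99e-04), Hadhb (-0.52, adjusted p = 0.00241), Acadm (-0.43, adjusted p = 0.00343), Acadvl (0.39, adjusted p = 0.00797), Slc25a20 (0.62, adjusted p = 0.00209) and Cpt1a (0.22, adjusted p = 0.0426) still passed in that comparison, and Hadha did not (-0.11, adjusted p = 0.271).

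With a 1.5-fold change also required, 2 members passed after LPS (28.1% of all genes in either direction), 1 at 32 µM (4.17%), 1 at 10 µM (0.861%), 0 at 3.2 µM (0%), 1 between 32 and 10 µM (1.32%), 0 between 10 and 3.2 µM (0.254%) and 1 at 32 µM against DMSO (27.1%). Scaling by library totals alone moved the median of all genes after LPS by about -0.20 (to a log2 of -0.20), changed the split from 3566 higher and 3654 lower to 2445 and 5556 (17.3% and 39.2% of all genes), and gave 7 members lower; Acaa2, Cpt1a, Acadm and Hadhb were lower under every scaling tried.

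Summed over the 9 genes, the level was 631 and 643 CPM in DMSO, 509 and 501 CPM in DMSO + LPS and 610 and 620 CPM at 32 µM. Without Cpt1a the other 8 summed to 512 ± 4.05 CPM (SD, n = 2) in DMSO, 448 ± 4.83 in DMSO + LPS, 456 ± 0.219 at 3.2 µM, 450 ± 12.2 at 10 µM and 466 ± 1.70 at 32 µM. Cpt1a alone therefore made up most of the higher sum with **1**: its part of the 9 genes' CPM was 19.6% in DMSO, 11.4% in DMSO + LPS and 24.2% at 32 µM.

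**Figure D3:**
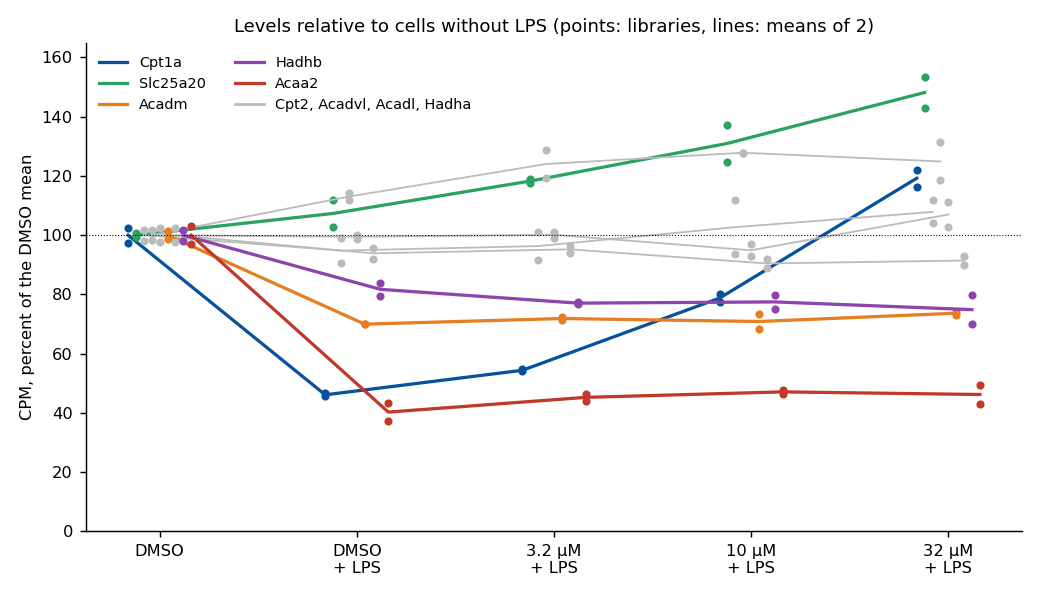
Level of each gene as a percentage of its DMSO mean (vertical axis) in the 5 groups; points are libraries and lines join means of 2. Cpt1a runs from 46.1% in DMSO + LPS to 119% at 32 µM and Slc25a20 from 107% to 148%, while Acaa2 (40.3 to 47.1%), Acadm (70 to 73.7%) and Hadhb (74.9 to 81.7%) stay down in every LPS-treated group.

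Per kilobase of the transcript that RefSeq and the annotation share, Acadl was the most abundant member in all 5 groups, with 43.3 to 48.8 CPM per kb, and Hadha came next with 36.6 to 40.5. Cpt1a was the fifth of 9 in DMSO (28.9 CPM per kb), the sixth in DMSO + LPS (13.3), where it could not be told from Slc25a20 (13.1), and the third at 32 µM (34.5). Acaa2 went from the sixth place in DMSO (24.2) to the last in DMSO + LPS (9.74), and overlapped Cpt2 at 3.2 and 10 µM. This order depends on the length used. Over all annotated exons Acadl was still the first in all 5 groups, and Cpt1a was again the fifth in DMSO, but the eighth in DMSO + LPS and the second at 32 µM. By that length Acaa2 was the second in DMSO and the sixth in DMSO + LPS, and Hadha was the fourth in DMSO and the third at 32 µM.

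The other carnitine enzymes were few. The muscle form Cpt1b and the neuronal form Cpt1c had at most 0.213 and 0.405 CPM in any library, against at least 56.9 CPM for Cpt1a. Of 4 carnitine genes tested outside the members, Cpt1c among them, 1 was higher after LPS (25.2% of all genes) and at 32 µM (4.06%): Slc22a4, a plasma membrane transporter of organic cations, which was at 4.26 CPM in DMSO, 14.3 CPM in DMSO + LPS and 24.4 CPM at 32 µM (log2 0.77 ± 0.07 against DMSO + LPS, adjusted p = 2.02e-04). Slc22a5, the main carnitine importer, and Crat, which handles short chains, passed in neither comparison, but both were lower after LPS when scaled by totals alone (log2 -0.38 and -0.25, adjusted p = 0.00842 and 0.0158). At 32 µM Slc22a5 was at a log2 of 0.14 (adjusted p = 0.481) and Crat at 0.17 (adjusted p = 0.165).

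Among 14 other enzymes of mitochondrial oxidation tested, 9 were lower and 0 higher after LPS (25.8% and 25.2% of all genes), with a median log2 change of -0.33 against 0.00 for all genes. Acat1, the acetoacetyl-CoA thiolase, went from 109 to 59.4 CPM, Hadh, the short-chain hydroxyacyl-CoA dehydrogenase, from 57.5 to 36.8 CPM, and Acads, the short-chain acyl-CoA dehydrogenase, from 60.7 to 38.4 CPM. At 32 µM 2 were lower still, Acat1 (log2 -0.34 ± 0.06, adjusted p = 0.0112) and the hydratase Echs1 (log2 -0.24 ± 0.05, adjusted p = 0.0233), and 0 were higher (5.72% and 4.06% of all genes). Peroxisomal oxidation genes showed 10 of 13 lower after LPS (25.8% of all genes) and 0 of 13 passing at 32 µM, where 4.06% of all genes were higher and 5.72% lower: Acox3, an acyl-CoA oxidase, was at 30.9 CPM in DMSO, 10.6 CPM in DMSO + LPS and 11.7 CPM at 32 µM. At an unadjusted p below 0.05, edgeR gave 1 of the 13 at 32 µM and 22.2% of all genes. DESeq2 called 1 of them and 12.5% of the 12484 genes to which it gave an adjusted p.

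The acyl-CoA synthetases and thioesterases divided after LPS, with 4 of 9 higher and 4 lower (25.2% and 25.8% of all genes), and 0 passed at 32 µM. At an unadjusted p below 0.05 edgeR gave 2 of the 9 there, a share like the 22.2% of all genes. DESeq2 called 1 (12.5% of its 12484 genes). Acsl1, which activates long-chain fatty acids at the outer mitochondrial membrane, rose with LPS from 59.5 to 92.1 CPM and was at 94.1 CPM at 32 µM. Of 15 genes of general mitochondrial content, such as Vdac1 and Lonp1, 5 were higher and 1 lower after LPS, where 25.2% and 25.8% of all genes were. Scaled by totals alone the counts were 1 and 5, against 17.3% and 39.2% of all genes. At 32 µM 0 of the 15 passed, with 2 at an unadjusted p below 0.05 by edgeR (22.2% of all genes) and 1 called by DESeq2 (12.5% of its 12484). Of 7 fatty acid synthesis genes, 4 were lower at 32 µM (5.72% of all genes), among them Acly, which makes cytosolic acetyl-CoA (log2 -0.43 ± 0.04, adjusted p = 4.75e-04), and Me1, a source of NADPH, was higher (log2 0.48 ± 0.08, adjusted p = 0.00920).

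**Figure D4:**
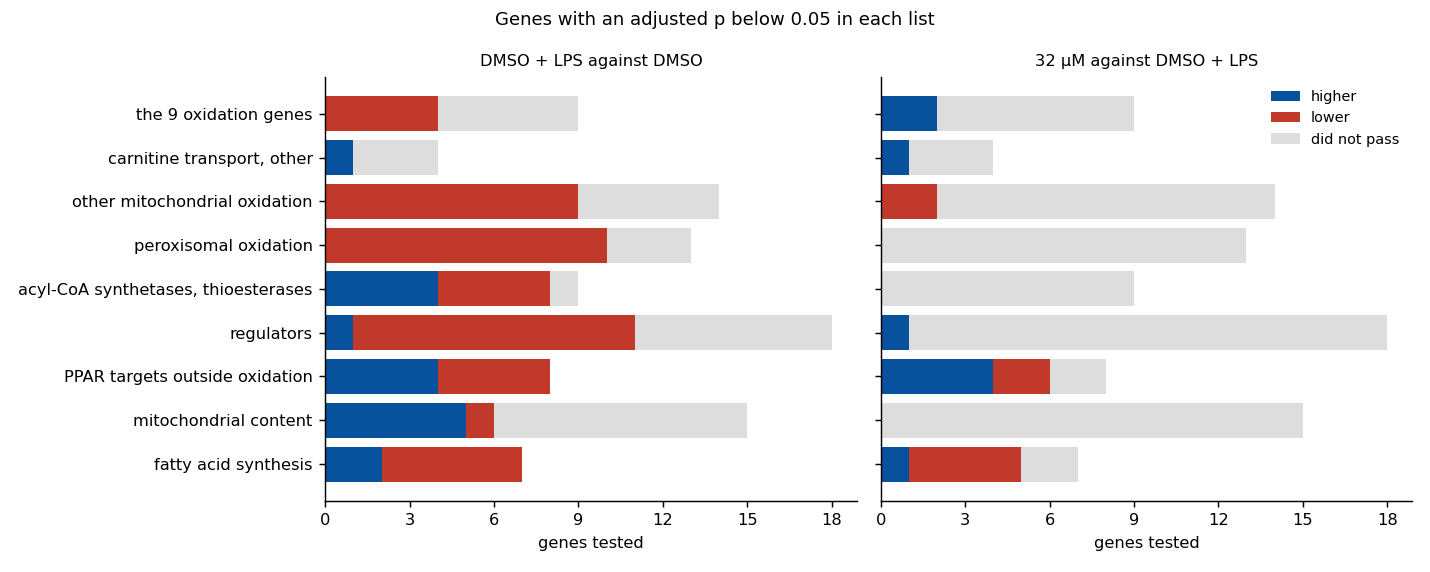
Number of tested genes (horizontal axis) with an adjusted p below 0.05, higher (blue) or lower (red), or not passing (grey), in the 9 oxidation genes and 8 related lists. After LPS 9 of 14 other mitochondrial and 10 of 13 peroxisomal oxidation genes were lower, and at 32 µM against DMSO + LPS 2 and 0 of them were.

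Among the regulators, the PPAR genes were expressed unequally. Ppard was at 26.5 and 29.5 CPM in DMSO and rose to 65.2 CPM in DMSO + LPS (log2 1.22 ± 0.07, adjusted p = 1.95e-06) and again to 81.7 CPM at 32 µM (log2 0.32 ± 0.07 against DMSO + LPS, adjusted p = 0.0175). Ppara had 0 to 10 counts per library and Pparg 8 to 50. The coactivator Ppargc1a had 11 counts in replicate 1 at 10 µM, the library with epithelial transcripts, and at most 1 elsewhere. Its relative Ppargc1b fell with LPS from 17.1 to 10.3 CPM and was at 10.6 CPM at 32 µM. Mlycd, which removes malonyl-CoA, fell from 16.9 to 11.3 CPM with LPS and was at 12.2 CPM at 32 µM, and Acacb, which makes malonyl-CoA at the mitochondrion, had under 1 CPM throughout. In all, 10 of 18 regulators were lower and 1 higher after LPS (25.8% and 25.2% of all genes). Scaled by totals alone, 17 were lower and 1 higher (39.2% and 17.3%). At 32 µM 1 was higher (4.06%).

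Other known PPAR targets did not share one direction. Their list was written with an earlier report on these data known, which names Plin2, so their counts are no independent test. Plin2, which coats lipid droplets, was at 120 and 122 CPM in DMSO + LPS and at 477 and 460 CPM at 32 µM (log2 1.95 ± 0.05, adjusted p = 5.21e-07), with 234 and 229 CPM at 10 µM (log2 0.94, adjusted p = 1.63e-04). Of 8 tested, 4 were higher at 32 µM (4.06% of all genes), including the fatty acid transporter Cd36 (log2 0.54 ± 0.08, adjusted p = 0.00330), and 2 lower (5.72%), the fatty acid binding proteins Fabp4 (log2 -1.66 ± 0.14, adjusted p = 1.84e-04) and Fabp5. Angptl4, an inhibitor of lipoprotein lipase, fell with LPS from 4.23 to 1.75 CPM and was at 1.96 CPM at 32 µM, and Pdk4, which turns down pyruvate oxidation, had 2 counts in 1 library and 0 in the other 9.

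Of the genes outside the 9 that passed at 32 µM against DMSO + LPS and are named above with their log2 changes, Ppard (log2 0.35, adjusted p = 0.0798) and Echs1 (log2 -0.25, adjusted p = 0.170) did not pass without the 3 libraries that stood apart. Plin2 (log2 1.98, adjusted p = 1.62e-04), Slc22a4 (0.80, adjusted p = 0.00703), Cd36 (0.44, adjusted p = 0.0188), Me1 (0.39, adjusted p = 0.0290), Fabp4 (-1.48, adjusted p = 0.00156), Acly (-0.43, adjusted p = 0.0226) and Acat1 (-0.41, adjusted p = 0.0456) still passed.

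Of 9561 genes with a mean of at least 5 CPM, those whose level followed Cpt1a most closely over the 10 libraries included C77080 (Pearson r = 0.994), Mtss1 (0.983), H6pd (0.979) and Ptpn1 (0.969). H6pd, the hexose-6-phosphate dehydrogenase of the endoplasmic reticulum, was at 75.5 CPM in DMSO, 57.1 CPM in DMSO + LPS and 86.5 CPM at 32 µM. The genes closest to the mean of Hadha and Hadhb were Mtmr4 (0.990), Rftn1 (0.990), Prkacb (0.988), Pag1 (0.987) and Ipo9 (0.987). Between members, Acaa2 and Acadm ran together (r = 0.975), Hadha and Hadhb less closely (0.716), and Acadvl against Hadhb (-0.928). These values describe 10 libraries in which replicates share a group, and carry no test.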

How the data were processed

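The deposited table holds whole-number read counts per Ensembl gene, made by the authors from 2 × 150 cycle reads; per the labels, their notes name Trimmomatic, FastQC, STAR, DESeq2 and mm10, while the counting tool, strand setting and annotation are not given in the sources used here. Symbols, positions and lengths came from GENCODE M21. From these counts, edgeR 4.0.16 (R 4.3.3) fitted all 10 libraries with quasi-likelihood (TMM scaling, filterByExpr with a minimum count of 10, 5 residual degrees of freedom), and p-values were adjusted by Benjamini-Hochberg over 14172 genes in each of 7 comparisons. A gene passed at an adjusted p below 0.05, and 1.5-fold was the further cutoff. CPM values are TMM-scaled; at about 24 CPM the smallest library holds 1103 counts, a counting error of 3.01%, which covers counting error only.

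The members and lists were chosen with earlier results of these data known. Named genes were the 9 members, up to 3 passing genes per list, direction and comparison, 12 regulators and targets whatever their values, and the 5 genes most correlated with Cpt1a (1 of them is not reported here) and with the mean of Hadha and Hadhb; Lyz2, Slc22a5 and Crat were named after their values were seen. Alternatives included other scalings, filters, DESeq2 1.42.0 and leaving out libraries.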

Additional observations from a re-analysis of the deposited data

How the results depend on the processing

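The number of members passing after LPS, 4, became 7 with library totals alone and 2 with the 1.5-fold cutoff, and ran from 3 to 5 when 1 library was left out. At 32 µM against DMSO + LPS the 2 became 1 with the cutoff and 4 with the short-transcript score in the fit, and 1 to 2 with 1 library left out. The single member at 10 µM became 2 with that score, and the 0 at 3.2 µM became 1 with the score and 1 in the fit on the 4 libraries compared. Between 32 and 10 µM the single member became 3 with the score, 0 in the 4-library fit and 0 without the 3 libraries that stood apart, an alternative chosen after seeing the data. Between 10 and 3.2 µM it became 0 with the cutoff, 0 in the 4-library fit, 0 without those 3 libraries, and 0 to 1 with 1 library left out. At 32 µM against DMSO the 7 became 1 with the cutoff. The score also raised the calls over all genes, from 1386 to 3366 at 32 µM, from 378 to 1529 at 10 µM, from 0 to 132 at 3.2 µM and from 391 to 1284 between 32 and 10 µM. The 4-library edgeR fit raised them from 0 to 487 at 3.2 µM and lowered them from 1386 to 985 at 32 µM, from 378 to 41 at 10 µM, from 391 to 5 between 32 and 10 µM and from 128 to 0 between 10 and 3.2 µM, where 803 genes had an unadjusted p below 0.05 and DESeq2 on all 10 libraries called 317. The cause of these changes was not tested.

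Of 1386 values of single members under 22 other settings, 45 changed call, 17 of them Hadha at 32 µM against DMSO, and 0 of the calls changed sign. The replicate block gave 5, 2, 1, 0, 1, 1 and 6 members in the 7 comparisons; replicate 1 deviations correlated at 0.104 to 0.573 in the 6 pairs of groups without DMSO + LPS and at -0.169 to -0.066 in the 4 pairs with it, so the numbers were not taken to pair the samples. With the numbers crossed in DMSO + LPS, chosen after seeing the data, the block gave 5, 2, 2, 0, 1, 1 and 7. Over all genes the calls went from 1386 to 1596 with the block and 2211 with the crossed block at 32 µM against DMSO + LPS, and from 378 to 474 and 784 at 10 µM. They fell to 717 and 722 at 32 µM and to 83 and 88 at 10 µM without replicate 1 or 2 of DMSO + LPS, and to 746 and 52 without the 3 libraries that stood apart, so the shares of all genes called are lower there too. Every member had at least 714 counts in each library.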
